A study of Homo sapiens with 9 samples.

Results

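The early growth response factors EGR1 to EGR4 and their corepressors NAB1 and NAB2 were examined in MCF10A, a human breast epithelial cell line that is immortal without being tumorigenic and that needs EGF in its medium to grow. Their members were all probe sets annotated to exactly 1 of these 6 genes on a one-colour Affymetrix expression array. There were 13 such probe sets among 54675, covering 5 of the 19775 genes so named: 3 for EGR1, 1 for EGR3, 3 for EGR4, 4 for NAB1 and 2 for NAB2. No probe set was annotated to EGR2 alone, and EGR2 expression was not analysed here. RNA was measured on 9 arrays in 3 groups of 3 biological replicates. The group labelled ERBB2 carried a pBabe retrovirus with ErbB2, a receptor tyrosine kinase, and received no EGF. The EGF group carried the empty pBabe virus and received EGF at 50 ng/ml for 2 h before harvest. The vector group carried the empty virus and received no EGF. All cells had been grown with EGF at 20 ng/ml, horse serum at 5%, hydrocortisone, cholera toxin and insulin, and once infected all were held without EGF in 2% horse serum. The titles call the replicates biological, but nothing in the labels ties a replicate to an infection of its own. The p-values thus cover the spread between these arrays, which may leave out that between infections.

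EGR factors are zinc-finger transcription factors that bind GC-rich sites in promoters. EGR1 is a classic immediate early gene, switched on through ERK signalling and serum response factor (SRF) at CArG boxes in its promoter without new protein synthesis. NAB1 and NAB2 bind a repressor domain shared by EGR1, EGR2 and EGR3 and turn their target genes down, and NAB2 is itself an EGR target, so that EGR activity can be limited by feedback. The comparison with EGF asked what acute receptor stimulation did to these genes, and the comparison with ErbB2 what an oncogenic receptor did without added ligand.

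The promoters are shown because EGR1 and NAB2 were called higher with EGF and NAB1 was not. EGR3 was also called higher with EGF, but no window of EGR3 was searched. Each is the 250 bases before a RefSeq start on GRCh38.p14, read 5′ to 3′ on the gene's strand, with the motif matches found on either strand in capitals. The motifs searched were the CArG box of SRF, the EGR motif GCGNGGGCG, the short cAMP response element TGACGT and the ETS motif CCGGAAG.
EGR1, chr5:138465229-138465478, plus strand: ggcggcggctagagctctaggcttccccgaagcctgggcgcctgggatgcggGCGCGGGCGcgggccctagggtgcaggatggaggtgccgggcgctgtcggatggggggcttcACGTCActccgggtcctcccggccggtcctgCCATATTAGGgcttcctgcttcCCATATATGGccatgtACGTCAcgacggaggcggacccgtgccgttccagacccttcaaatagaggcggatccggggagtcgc
NAB2, chr12:57088864-57089113, plus strand: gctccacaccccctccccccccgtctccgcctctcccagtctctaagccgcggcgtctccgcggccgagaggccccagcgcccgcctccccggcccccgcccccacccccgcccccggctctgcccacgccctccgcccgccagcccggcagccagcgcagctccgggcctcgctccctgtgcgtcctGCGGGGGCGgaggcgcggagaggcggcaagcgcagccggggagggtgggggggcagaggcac
NAB1 (first of 3 annotated starts), chr2:190648645-190648894, plus strand: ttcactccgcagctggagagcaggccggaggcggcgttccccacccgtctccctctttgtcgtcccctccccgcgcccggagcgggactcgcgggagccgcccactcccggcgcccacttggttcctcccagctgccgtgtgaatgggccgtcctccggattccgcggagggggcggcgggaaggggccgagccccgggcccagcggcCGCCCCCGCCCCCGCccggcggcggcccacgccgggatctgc

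The EGR1 window held 2 CArG boxes, starting 105 and 83 bases before the annotated start, 2 short cAMP response elements at 136 and 67 bases and 1 EGR motif at 198 bases. A CArG box was present in 1.16% of 35116 such windows of all RefSeq genes, the short cAMP response element in 7.10% and the EGR motif in 8.41%. The NAB2 window held 1 EGR motif at 62 bases and no CArG box. This NAB1 window held 2 overlapping EGR motifs on the minus strand at 42 and 36 bases and no CArG box. The window of the second NAB1 start, which overlaps the first, held 3 EGR motifs at 230, 224 and 175 bases. Those at 230 and 224 bases are the same 2 sites as in the first window. That of the third held no EGR motif and 1 short cAMP response element at 200 bases, and neither held a CArG box. The EGR4 window held 2 short cAMP response elements, at 178 and 110 bases, and neither a CArG box nor an EGR motif. The EGR2 window at chr10:62816367-62816616 held 1 CArG box at 71 bases and 1 short cAMP response element at 55 bases. No motif searched was found in the other EGR2 windows. The ETS motif CCGGAAG, found in 8.52% of windows, was in none of these windows. Other forms of ETS site were not searched, so their absence is not shown. These matches are letters in these windows and not measured binding.

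Values are MAS5 signals on a linear scale in arbitrary units, and levels of different probe sets are not compared as amounts of RNA. The sums of marker signals below are weighted to the brightest probe sets. A filter on low values kept 32768 probe sets, among them 10 of the 13 members. These were tested with limma on log2(signal + 16), and a change was called at a Benjamini-Hochberg adjusted p under 0.05. Log2 changes carry SEs or 95% intervals, and the added 16 understates changes of dim probe sets. Median signals lay between 17.94 and 20.06 on arrays labelled ERBB2, between 15.57 and 16.90 with EGF, and for vector cells from 19.85 to 20.18. The number of arrays limits the precision, and an exact two-sided permutation test of 1 probe set with 3 against 3 arrays cannot give a p under 0.1.

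Facts of the arrays accompany every result for the group labelled ERBB2. The ERBB2 probe set with the highest mean read 98.8 ± 23.1 there, 104.1 ± 23.3 with EGF and 174.0 ± 48.0 in vector cells (SD, n = 3 each), and a dimmer one read 35.6 ± 2.51 on arrays labelled ERBB2, 15.4 ± 1.19 with EGF and 12.6 ± 8.78 in vector cells. They differ in direction and do not settle the label, and the positions of their probes were not used here. The 5′ to 3′ ratio of the ACTB control was 0.737 ± 0.051 on arrays labelled ERBB2, 0.443 ± 0.063 with EGF and 0.379 ± 0.055 in vector cells. That of the GAPDH control differed little, at 0.869 ± 0.032 on arrays labelled ERBB2, 0.812 ± 0.045 with EGF and 0.847 ± 0.034 in vector cells. The 18S ribosomal RNA probe set nearest the 3′ end read 12587 ± 826 on arrays labelled ERBB2, 2868 ± 673 with EGF and 3380 ± 1330 in vector cells. The part of these differences in the results below was not tested. Of 10 listed epithelial markers, all 6 that had a probe set passed the filter, their summed signal between 9411 and 10430 on arrays labelled ERBB2, between 13880 and 16760 with EGF and between 17900 and 20490 in vector cells. The brightest, KRT5, averaged 6227 on arrays labelled ERBB2, 8847 with EGF and 11860 in vector cells. KRT14 averaged 148.9 on arrays labelled ERBB2, 1758 with EGF and 2640 in vector cells, whereas LAMB3 averaged 806.1 on arrays labelled ERBB2, 1282 with EGF and 552.3 in vector cells. Among fibroblast markers 3 of 6 passed, with sums of 394.7 to 576.2 on arrays labelled ERBB2, 501.6 to 557.6 with EGF and 1357 to 1509 in vector cells, most of it DCN. Blood and endothelial markers passed in 2 of 6 cases, with sums of 128.8 to 169.7 on arrays labelled ERBB2, 69.7 to 94.45 with EGF and 86.37 to 114.4 in vector cells, so that arrays labelled ERBB2 lay above the others. PECAM1, an endothelial adhesion molecule, averaged 90.08 on arrays labelled ERBB2, 39.86 with EGF and 28.98 in vector cells. The part of these marker differences in the results below was not tested.

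EGR1 rose with EGF and, less far, in the arrays labelled ERBB2. In RNA of whole cultures, more cells expressing a gene and more RNA per cell cannot be told apart. The EGR1 probe set with the highest mean (227404_s_at) read 890.7, 940.5 and 1195 in the arrays labelled ERBB2. It read 2197, 2192 and 2133 with EGF, against 128.5, 145.5 and 160.3 in vector cells. The 3 groups did not overlap in any pair, with EGF arrays highest, arrays labelled ERBB2 in between and vector arrays lowest. The change in the arrays labelled ERBB2 against vector was 2.67 ± 0.11 on the log2 scale (SE, limma adjusted p = 1.549e-13), a ratio of mean signals of 6.97. With EGF it was 3.77 ± 0.11 (limma adjusted p = 2.285e-15), a ratio of 15.0 and the 7th highest of the 32768 changes in that comparison. These comparisons share the vector arrays. Set directly against EGF, the arrays labelled ERBB2 were lower, at -1.11 ± 0.11 (limma adjusted p = 1.670e-07). Here and below, these groups differed both in virus and in EGF, and EGF was measured only at 2 h. Effects of the receptor, the ligand and the time of signalling cannot be told apart.

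The second EGR1 probe set (201694_s_at) gave the same order of groups. It read 496.0, 473.8 and 408.0 in the arrays labelled ERBB2 and 1239, 994.5 and 1196 with EGF, against 80.78, 112.7 and 111.1 in vector cells. Again no groups overlapped. Its changes were 2.02 ± 0.12 for arrays labelled ERBB2 against vector (limma adjusted p = 9.626e-11) and 3.31 ± 0.12 for EGF against vector (limma adjusted p = 1.950e-13). Arrays labelled ERBB2 stood at -1.29 ± 0.12 from EGF arrays (limma adjusted p = 2.001e-07). All 3 calls of both probe sets were kept under all 19 alternatives.

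The EGR1 probe set with the lowest mean (201693_s_at) was less even. It read 128.3, 35.16 and 57.86 in the arrays labelled ERBB2 and 352.3, 244.4 and 254.8 with EGF, against 39.50, 31.55 and 28.84 in vector cells. EGF arrays lay above all others, whereas replicate 2 labelled ERBB2 fell among the vector arrays. With EGF the change was 2.59 ± 0.26 (limma adjusted p = 2.140e-07), and arrays labelled ERBB2 stood at -1.86 ± 0.26 from EGF (limma adjusted p = 2.008e-05). Against vector the arrays labelled ERBB2 changed by 0.73 ± 0.26 (limma adjusted p = 0.02986). That call ended without ERBB2 replicate 1 (0.324, adjusted p = 0.2407), without vector replicate 2 (0.712, adjusted p = 0.06744) or without vector replicate 3 (0.669, adjusted p = 0.08745), as it did without the filter, without a variance trend and with only the arrays compared. Adjusted p lay between 0.001533 and 0.2407 over 19 alternatives.

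EGR3, a paralogue of EGR1 known as an immediate early gene in nerve and immune cells, was higher with EGF and not called in the arrays labelled ERBB2. Its single probe set read 27.10, 17.60 and 2.004 in the arrays labelled ERBB2 and 74.79, 59.42 and 59.92 with EGF, against 16.21, 14.25 and 16.87 in vector cells. The EGF arrays lay above all others, and the arrays labelled ERBB2 spanned the vector arrays on both sides. The change with EGF was 1.34 ± 0.28 (limma adjusted p = 0.0009278). Arrays labelled ERBB2 differed from EGF arrays by -1.44 ± 0.28 (limma adjusted p = 0.000597). Against vector they differed by -0.10, with a 95% interval of -0.68 to 0.48 (limma adjusted p = 0.8173). Both sizes depended on the value added before the logarithm: the change with EGF was 1.96 with 1 and 0.69 with 64, and that of arrays labelled ERBB2 against EGF -2.49 with 1 and -0.70 with 64. The signals of arrays labelled ERBB2 and of vector arrays are near a level that cannot be placed above background, and the probe set did not pass the stricter filter. Without ERBB2 replicate 3 the difference from vector turned to 0.261 (adjusted p = 0.4355).

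EGR4, a paralogue known mainly from neurons, had no call. Its probe set past the filter (207767_s_at) read 27.58, 27.77 and 26.85 in the arrays labelled ERBB2 and 28.75, 29.12 and 17.61 with EGF, against 27.96, 44.29 and 57.01 in vector cells. Vector arrays were the widest group, and their lowest value lay only just above the highest in the arrays labelled ERBB2. The changes were -0.41 ± 0.23 in the arrays labelled ERBB2 (limma adjusted p = 0.1783) and -0.50 ± 0.23 with EGF (limma adjusted p = 0.1196). The change with EGF passed the threshold only without vector replicate 1 (-0.702, adjusted p = 0.04292), with adjusted p up to 0.3938 over 19 alternatives. The other EGR4 probe sets were below the filter, with signals between 0.451 and 16.21 on the 9 arrays, and whether such values exceed background cannot be said in the absence of detection calls. In the fit without the filter neither was called in any comparison, with adjusted p of at least 0.2866.

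**Figure D1:**
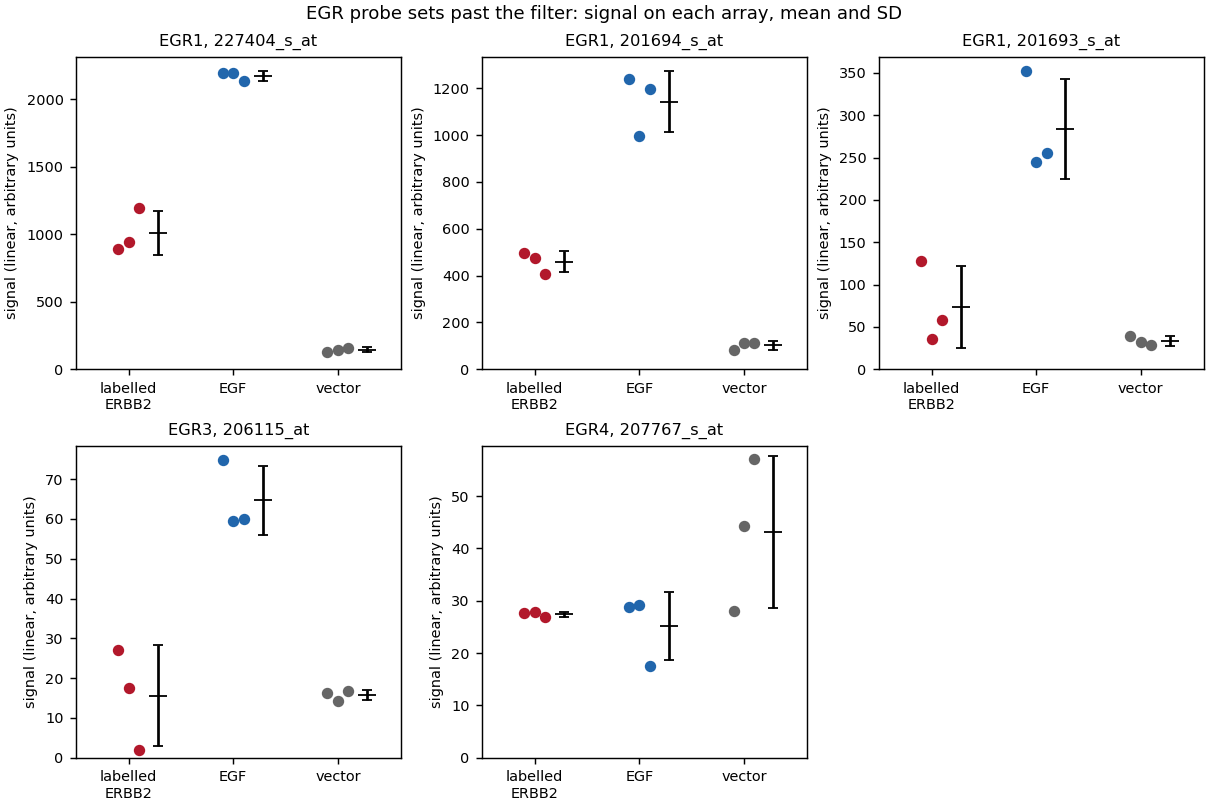
Signal on the linear scale (arbitrary units, axis from 0) of the 5 EGR probe sets past the filter, with points for the 3 arrays of each group, left to right labelled ERBB2, EGF and vector, and bars for mean and SD. EGF arrays are highest for the 3 EGR1 probe sets and EGR3, and arrays labelled ERBB2 lie between EGF and vector for the first 2 EGR1 probe sets.

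NAB1, which represses EGR targets, was lower in the arrays labelled ERBB2 by the probe set with its highest mean (209272_at). That probe set read 272.7, 233.7 and 262.5 in the arrays labelled ERBB2 and 454.2, 421.3 and 403.9 with EGF, against 577.4, 436.5 and 545.8 in vector cells. The arrays labelled ERBB2 lay below all others, and EGF and vector arrays overlapped. The change against vector was -0.97 ± 0.11 (limma adjusted p = 6.679e-07) and against EGF -0.70 ± 0.11 (limma adjusted p = 8.808e-05), and both calls were kept under all 19 alternatives. With EGF it differed from vector by -0.27, with a 95% interval of -0.50 to -0.03 (limma adjusted p = 0.08057). It was called there without vector replicate 2 (-0.386, adjusted p = 0.01530), after quantile normalization (-0.333, adjusted p = 0.03334) and with array weights (-0.291, adjusted p = 0.04052), with adjusted p from 0.01530 to 0.5510 over 19 alternatives.

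The other NAB1 probe sets did not all show that fall. One (211139_s_at) read 146.2, 200.3 and 153.3 in the arrays labelled ERBB2 and 127.9, 172.7 and 168.7 with EGF, against 199.9, 156.3 and 195.2 in vector cells. All 3 groups overlapped, and the change in the arrays labelled ERBB2 against vector was -0.13 (95% interval -0.45 to 0.18, limma adjusted p = 0.5219). Another (208047_s_at) read 34.99, 92.52 and 34.50 in the arrays labelled ERBB2 and 98.55, 160.2 and 122.9 with EGF, against 108.3, 49.35 and 97.12 in vector cells. There the arrays labelled ERBB2 lay below the EGF arrays without overlap (-1.11 ± 0.27, limma adjusted p = 0.004783), a call that ended without a variance trend (adjusted p = 0.05319, the highest of 19 alternatives, with 0.0002895 the lowest). Against vector they stood at -0.57 ± 0.27 (limma adjusted p = 0.1062), which was called without vector replicate 2 (-0.859, adjusted p = 0.01780), and also without ERBB2 replicate 2 (-0.938, adjusted p = 0.006182), with adjusted p up to 0.3469 over 19 alternatives.

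The fourth NAB1 probe set (239875_at) went the other way at signals near the bottom of the scale. It was below the filter and read 22.23, 9.954 and 19.71 in the arrays labelled ERBB2 and 11.48, 13.28 and 12.12 with EGF, against 4.053, 2.085 and 2.639 in vector cells. Both other groups lay above the vector arrays without overlap. In the fit without the filter the change in the arrays labelled ERBB2 was 0.80 ± 0.23 (limma adjusted p = 0.02047), where 9.97% of 54613 probe sets were called higher. With EGF it was 0.58 ± 0.23 (limma adjusted p = 0.1193). NAB1 probe sets thus gave calls of opposite sign in the arrays labelled ERBB2, the higher one from the unfiltered fit.

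NAB2, the corepressor known to be induced by EGR factors, was higher with EGF. Its probe set with the highest mean (212803_at) read 110.4, 52.06 and 73.73 in the arrays labelled ERBB2 and 110.7, 130.8 and 113.8 with EGF, against 58.82, 68.13 and 72.99 in vector cells. EGF arrays lay above all others, replicate 1 labelled ERBB2 nearly reached them, and arrays labelled ERBB2 overlapped vector arrays. The change with EGF was 0.70 ± 0.19 (limma adjusted p = 0.008898), a ratio of mean signals of 1.78, and its call was kept under all 19 alternatives. Against vector the arrays labelled ERBB2 changed by 0.15 (95% interval -0.25 to 0.56, limma adjusted p = 0.5740). Set against EGF they stood at -0.55 ± 0.19 (limma adjusted p = 0.04444), a call that 8 of 19 alternatives also made (range of adjusted p 0.004434 to 0.2360). It ended without any EGF replicate (-0.589, -0.483 and -0.572 without replicates 1, 2 and 3), without ERBB2 replicate 2 (-0.333) or 3 (-0.532), and without vector replicate 3 (-0.548).

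The second NAB2 probe set (216017_s_at) read 23.22, 42.44 and 32.94 in the arrays labelled ERBB2 and 47.15, 55.26 and 40.68 with EGF, against 10.63, 39.17 and 33.99 in vector cells. EGF arrays lay above vector arrays without overlap, and arrays labelled ERBB2 overlapped both. The change with EGF was 0.60 ± 0.26 (limma adjusted p = 0.09777) and was not called. It was called without vector replicate 2 (0.798, adjusted p = 0.04560), after quantile normalization (0.739, adjusted p = 0.04140) and with equal array medians (0.758, adjusted p = 0.03495), with adjusted p up to 0.4556 over 19 alternatives.

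**Figure D2:**
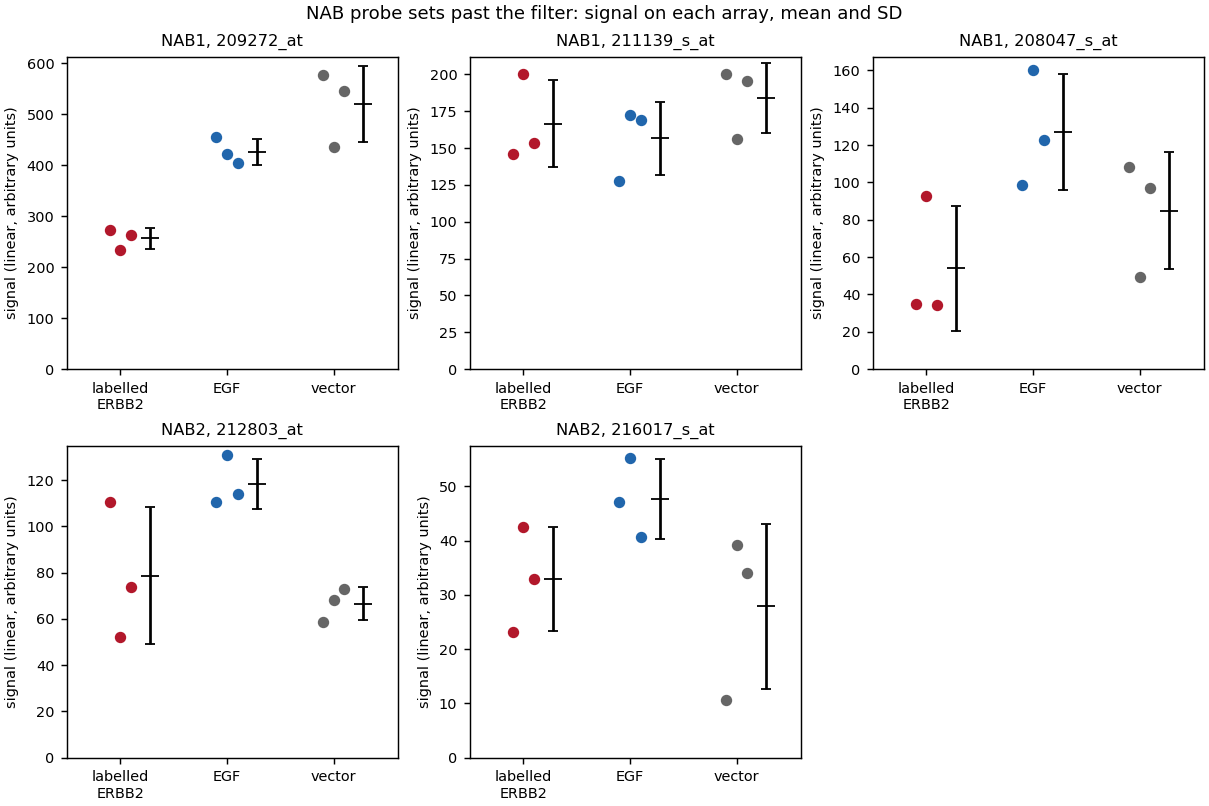
Signal on the linear scale (arbitrary units, axis from 0) of the 5 NAB probe sets past the filter, with points for the 3 arrays of each group, left to right labelled ERBB2, EGF and vector, and bars for mean and SD. The first NAB1 probe set is lowest on arrays labelled ERBB2, and the first NAB2 probe set is highest on EGF arrays.

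Counted over the 10 tested probe sets, 3 were called higher and 1 lower in the arrays labelled ERBB2 against vector, where 17.7% of all 32768 probe sets were called higher and 21.0% lower. The 3 were the EGR1 probe sets, and the 1 was of NAB1. With EGF 5 were called higher and none lower, against 12.9% and 15.9% of all probe sets. The 5 were all 3 EGR1 probe sets, EGR3 and 1 of NAB2. In the arrays labelled ERBB2 against EGF none was called higher and 7 were lower, against 11.6% and 12.2% of all, namely 4 of 5 EGR and 3 of 5 NAB probe sets. Groups did not overlap for 4, 6 and 7 of the 10 in the 3 comparisons, against 47.0%, 42.2% and 37.9% of all probe sets. Their median log2 changes were 0.03, 0.65 and -0.90 in the 3 comparisons, against -0.07, -0.11 and 0.03 over all probe sets. Probe sets of 1 gene share their RNA and are not independent.

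**Figure D3:**
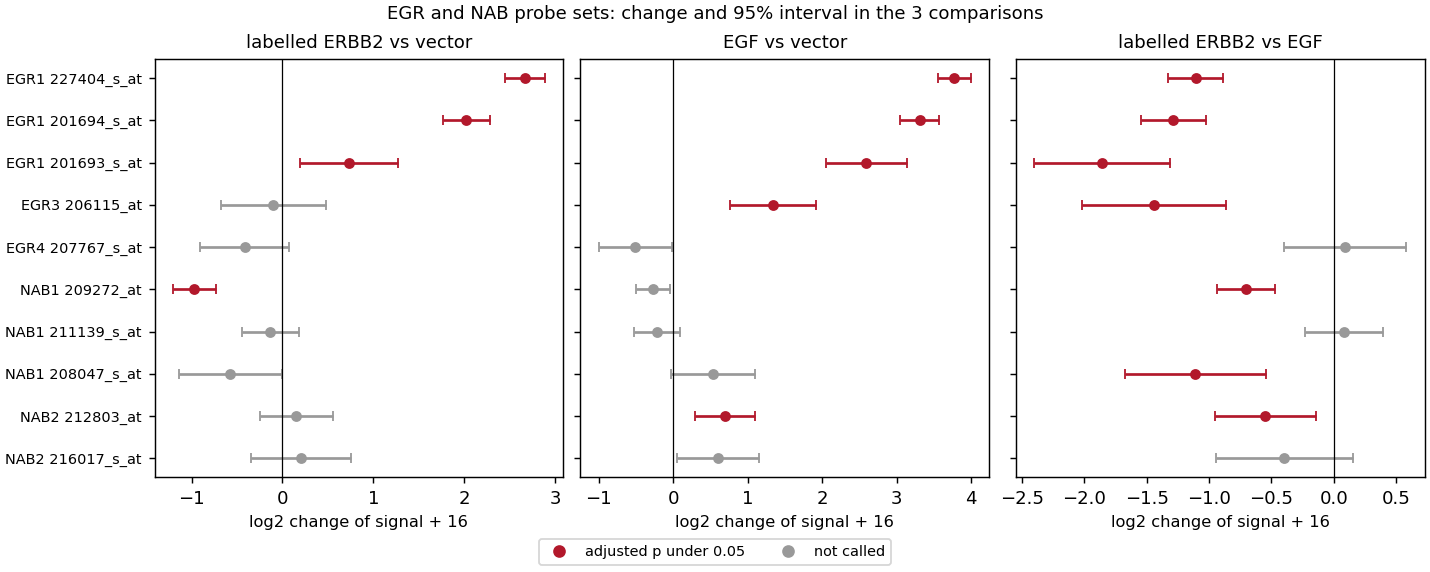
Log2 change of signal + 16 with its 95% interval (limma, all 9 arrays) for the 10 tested probe sets, in panels for labelled ERBB2 against vector, EGF against vector and labelled ERBB2 against EGF, each with its own horizontal scale. Red points passed an adjusted p of 0.05: 4, 5 and 7 of 10, and all 7 in the last panel are negative.

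Genes whose levels followed a member most closely over the 9 arrays were found by Pearson correlation of log2 values among 13725 other genes, taking for each gene the probe set that had the highest mean. The 9 points share 3 groups, and these values are descriptions. For EGR1 they were CA13, a carbonic anhydrase, RRP15, of ribosome assembly, the channel protein PANX1, ANGPTL4, an inhibitor of lipoprotein lipase, and GEMIN5, of snRNP assembly, with r between 0.9926 and 0.9953. ANGPTL4 read 618.3 ± 45.2 in the arrays labelled ERBB2 and 1588 ± 57.5 with EGF, against 26.68 ± 13.6 in vector cells (SD, n = 3 each). For EGR3 the first was the sterol enzyme MSMO1 (r = 0.9754), at 3234 ± 395 in the arrays labelled ERBB2, 5343 ± 179 with EGF and 3381 ± 136 in vector cells, followed by UXS1, PYGB, ERICH1 and SLITRK6. For NAB1 they were ZNF91, FBXL4, ADGRG6, ZNF160 and SRPK2, with r between 0.982 and 0.9876. For NAB2 they were the metallothionein MT1G (r = 0.9804), WNT10B, CYB561, GEMIN7 and SNAPC4. All of these spread most within the arrays labelled ERBB2, as NAB2 itself did. MT1G read 3456 ± 1210 in the arrays labelled ERBB2, 5769 ± 274 with EGF and 3134 ± 511 in vector cells. WNT10B was dim, at 20.51 ± 19.0 in the arrays labelled ERBB2, 35.35 ± 4.57 with EGF and 11.34 ± 2.18 in vector cells.

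The gene lists below take 1 probe set per gene, that with the highest mean, whereas the shares beside them cover all tested probe sets, dim ones included. Brighter probe sets were called more often. For labelled ERBB2 against vector 12689 of 32768 were called, and 11921 of 21845 with the 60th percentile filter. The shares are thus not a like base for the lists. Upstream of the EGR promoters, the 6 genes of SRF and its cofactors went in both directions. Over all probe sets 17.7% were called higher and 21.0% lower in the arrays labelled ERBB2 against vector, 12.9% and 15.9% with EGF, and 11.6% and 12.2% in the arrays labelled ERBB2 against EGF. In the arrays labelled ERBB2 against vector 2 were called higher, SRF (0.48 ± 0.14, limma adjusted p = 0.01085) and the ternary complex factor ELK4 (0.33 ± 0.11, limma adjusted p = 0.01770), and 2 lower, ELK3 (-0.85 ± 0.09) and the coactivator MRTFB (-0.65 ± 0.11). The SRF call ended without vector replicate 2 (adjusted p = 0.05369, the highest of 19 alternatives), and its other probe set past the filter had the opposite sign. The ELK4 call there ended without vector replicate 2, without ERBB2 replicate 2 and without a variance trend (adjusted p up to 0.1115). Of the 5 other ELK4 probe sets past the filter, only 3 had the same sign, there and with EGF. With EGF 2 were higher, ELK3 (0.38 ± 0.09, limma adjusted p = 0.003994) and ELK4 (0.35 ± 0.11, limma adjusted p = 0.01640), and 2 lower, MRTFA (-0.78 ± 0.16) and MRTFB (-0.35 ± 0.11). The ELK4 call with EGF ended without vector replicate 2, without EGF replicate 1 and without a variance trend (adjusted p up to 0.09142). That of MRTFB ended with equal array medians (-0.188, adjusted p = 0.2655), without a variance trend, and without vector replicate 1 or 3 or EGF replicate 2 or 3 (adjusted p up to 0.1145 for these). The other probe set of ELK3 past the filter had the opposite sign with EGF. Directly compared, ELK3 was lower in the arrays labelled ERBB2, at 397.4 ± 51.9, than with EGF, at 951.9 ± 37.0 (-1.23 ± 0.09, limma adjusted p = 7.840e-09), and none was higher.

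NAB corepressors act in part through the NuRD complex, whose chromatin remodeller CHD4 binds NAB2. Of its 13 genes, 4 were called higher and 5 lower in the arrays labelled ERBB2 against vector, 2 higher and 3 lower with EGF, and 3 higher and 1 lower between arrays labelled ERBB2 and EGF. Over all probe sets the shares were 17.7% higher and 21.0% lower, 12.9% and 15.9%, and 11.6% and 12.2% in these comparisons. The histone-binding RBBP7 read 2060 ± 161 in the arrays labelled ERBB2 and 1098 ± 33.2 in vector cells (0.90 ± 0.08, limma adjusted p = 2.645e-08). MTA1 was at 219.4 ± 14.1 in the arrays labelled ERBB2 and 442.4 ± 44.3 in vector cells (-0.96 ± 0.11, limma adjusted p = 3.249e-07). The deacetylase HDAC2 rose in both, by 0.61 in the arrays labelled ERBB2 (limma adjusted p = 1.429e-06) and 0.44 with EGF (limma adjusted p = 0.0001192), while its other probe set past the filter had the opposite sign in both. The list's median changes were 0.06, 0.03 and 0.17 in the 3 comparisons, against -0.07, -0.11 and 0.03 over all probe sets.

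Reported targets of EGR factors did not move one way. Of 30 genes 22 were tested, of which 6 were called higher and 7 lower in the arrays labelled ERBB2 against vector, with a median of 0.08, against 17.7% and 21.0% of all probe sets with a median of -0.07. With EGF 8 were higher and 4 lower, with a median of 0.18, against 12.9% and 15.9% of all probe sets with a median of -0.11. Tissue factor F3, a target of EGR1, read 668.4 ± 25.4 in the arrays labelled ERBB2 and 973.0 ± 108 with EGF, against 75.02 ± 6.16 in vector cells. Its changes against vector were 2.91 ± 0.11 in the arrays labelled ERBB2 (limma adjusted p = 3.661e-14) and 3.44 ± 0.11 with EGF (limma adjusted p = 9.129e-15). VEGFA read 509.8 ± 21.5 in the arrays labelled ERBB2 and 1134 ± 17.8 with EGF, against 305.2 ± 10.4 in vector cells. It was higher in both, by 0.71 ± 0.09 in the arrays labelled ERBB2 (limma adjusted p = 1.106e-06) and 1.84 ± 0.09 with EGF (limma adjusted p = 5.310e-12). CBLB, a ubiquitin ligase known as a target of EGR2 and EGR3 in mouse T cells, was lower in both, at -2.04 ± 0.13 in the arrays labelled ERBB2 (limma adjusted p = 2.251e-10) and -1.74 ± 0.13 with EGF (limma adjusted p = 5.765e-09). So was fibronectin FN1, at -1.35 ± 0.18 in the arrays labelled ERBB2 (limma adjusted p = 3.656e-06) and -0.95 ± 0.18 with EGF (limma adjusted p = 0.0003391). Between arrays labelled ERBB2 and EGF 2 were higher and 7 lower, with a median of -0.38, against 11.6% and 12.2% of all probe sets with a median of 0.03. There TGFB1 was at 122.9 ± 19.4 in the arrays labelled ERBB2 and 276.4 ± 23.2 with EGF (-1.08 ± 0.13, limma adjusted p = 3.126e-06), with the opposite sign in its other probe set past the filter, and thrombospondin THBS1 was at 927.6 ± 52.7 in the arrays labelled ERBB2 and 406.1 ± 70.2 with EGF (1.17 ± 0.12, limma adjusted p = 3.343e-07).

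Among 13 tested immediate early transcription factors other than EGR1 and EGR3, 4 were called higher and 4 lower in the arrays labelled ERBB2 against vector, with a median of -0.05, where 17.7% and 21.0% of all probe sets were called. With EGF 7 were higher and 1 lower, with a median of 0.27, where 12.9% and 15.9% of all were called. FOS, of AP-1, was lower than vector in the arrays labelled ERBB2, where EGR1 was higher, and higher with EGF, as EGR1 was. It read 116.7 ± 21.7 in the arrays labelled ERBB2 and 569.8 ± 47.4 with EGF, against 274.6 ± 47.1 in vector cells (SD, n = 3 each). Its change in the arrays labelled ERBB2 against vector was -1.13 ± 0.14 (limma adjusted p = 1.095e-06), and with EGF 1.02 ± 0.14 (limma adjusted p = 8.125e-06). FOSL1, a later AP-1 member, was higher in both, by 1.59 ± 0.13 in the arrays labelled ERBB2 (limma adjusted p = 5.308e-09) and 1.82 ± 0.13 with EGF (limma adjusted p = 2.069e-09). So was IER2, by 1.18 ± 0.10 in the arrays labelled ERBB2 (limma adjusted p = 1.395e-08) and 1.24 ± 0.10 with EGF (limma adjusted p = 1.819e-08). KLF4 was lower in both, at -1.84 ± 0.14 in the arrays labelled ERBB2 (limma adjusted p = 1.314e-09) and -1.23 ± 0.14 with EGF (limma adjusted p = 8.039e-07). In the arrays labelled ERBB2 against EGF none was higher and 7 were lower, with a median of -0.34, where 11.6% and 12.2% of all were called. Among the 7 were FOS (-2.15 ± 0.14, limma adjusted p = 5.444e-10) and JUNB (-1.01 ± 0.14, limma adjusted p = 2.320e-05).

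Of the other factors that bind GC-rich sites, SP1, SP3 and SP4 were tested, and WT1 was below the filter. SP1 was lower in both, at 311.8 ± 16.1 in the arrays labelled ERBB2 and 304.5 ± 9.38 with EGF, against 547.7 ± 35.0 in vector cells (limma adjusted p = 1.738e-06 and 2.106e-06). SP3 was lower in the arrays labelled ERBB2, at 442.0 ± 19.5, against 671.6 ± 75.8 in vector cells (limma adjusted p = 4.467e-05), and 2 of its 3 other probe sets had the opposite sign.

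**Figure D4:**
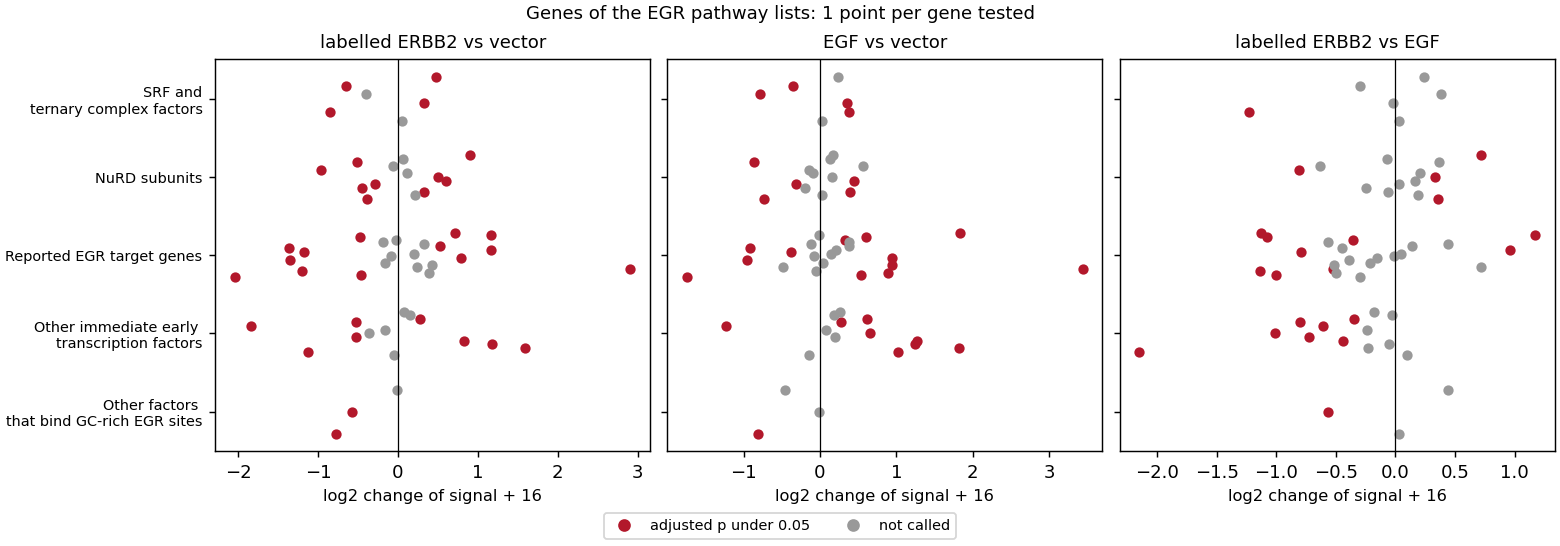
Log2 change of signal + 16 of each tested gene of the 5 lists (rows), 1 point per gene, in panels for labelled ERBB2 against vector, EGF against vector and labelled ERBB2 against EGF, each with its own horizontal scale. Red points passed an adjusted p of 0.05; F3 is the rightmost point of the first 2 panels, and FOS the leftmost of the last.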

How the data were processed

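Total RNA of 9 MCF10A samples was hybridised to Affymetrix arrays. The authors deposited signal intensities on a linear scale, and per the submitters' processing notes MAS5 produced them; no version, setting or detection call was used here. Trimming the top and bottom 2% of probe sets left nearly equal means on all arrays, as array-wise scaling gives. By the platform's annotation 41097 probe sets had 1 gene, 1801 had several and 11777 had none. The 62 control probe sets were not tested, and a probe set was kept if its mean log2(signal + 16) exceeded the 40th percentile. The 3 comparisons came from 1 limma 3.58.1 model of group means (R 4.3.3, lmFit and eBayes with a variance trend) with 6 residual degrees of freedom, and p-values were adjusted over all 32768 probe sets. The method was tested on simulated data with independent noise and a small share of raised probe sets. These arrays had far more calls, in both directions, so that test does not show how the method performs on them.

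Groups and replicate numbers came from sample titles. The members, the 5 gene lists, the markers and the rule for named genes were chosen with earlier results of these data known. That rule took all member probe sets, the 5 genes most correlated with each called member, and up to 4 called genes per list and comparison with the largest change. Only some of the list genes so taken are printed, by no further fixed rule. Alternatives were a pseudocount of 1 or 64, a filter at the 60th percentile or none, equal array medians, quantile normalization, array weights, no variance trend, a fit of only the 2 groups compared, a replicate block, and leaving out each array. Promoter windows came from RefSeq (GRCh38.p14), and those of EGR1, EGR2, EGR4, NAB1 and NAB2 were searched.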

Additional observations from a re-analysis of the deposited data

How the results depend on the processing

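Over 19 alternatives the member probe sets gave 567 recomputed changes, of which 531 kept their direction and their side of the threshold, 18 lost a call, 9 gained one and 9 changed sign. The 9 sign changes were in changes called neither before nor after. With arrays left out in turn, the change of arrays labelled ERBB2 against vector lay between -0.369 and 0.261 for EGR3 (highest without ERBB2 replicate 3), between -0.0771 and 0.37 for the first NAB2 probe set (lowest without ERBB2 replicate 1) and between -0.123 and 0.403 for the second (lowest without vector replicate 1). Against EGF it lay between -0.0501 and 0.162 for EGR4 (lowest without EGF replicate 3), with -0.00602 after quantile normalization and -0.0214 with equal array medians. For NAB1 (211139_s_at) it lay between -0.047 and 0.161, below 0 without ERBB2 replicate 2 (-0.047) or EGF replicate 1 (-0.044), with -0.0298 with equal array medians. The number of called member probe sets stayed within 1.5 times of 4, 5 and 7 throughout. Leaving out each array gave 3 to 5 calls for labelled ERBB2 against vector, 5 to 7 for EGF against vector and 6 to 7 for labelled ERBB2 against EGF. The replicate number was shared across groups, but none of 9 same-numbered array pairs had deviations correlated over 0.1 (-0.0302 to 0.0192), so the numbers were not taken to pair the arrays. With the replicate number as a block 4, 5 and 6 member probe sets were called, the lost call being that of NAB2 between arrays labelled ERBB2 and EGF (adjusted p = 0.05585). Of 1556 recomputed changes of list genes that were not called, 99 changed sign without a call and 34 gained a call. Of 285 recomputed list counts 276 stayed within 1.5 times. For SRF and its cofactors the 4 calls of arrays labelled ERBB2 against vector became 2 without vector replicate 2, the 4 with EGF became 2 without a variance trend, and the 1 between arrays labelled ERBB2 and EGF became 2 with the 60th percentile filter, with equal array medians or without EGF replicate 2. For NuRD subunits the 5 calls with EGF became 3 without a variance trend or without vector replicate 2, and the 4 between arrays labelled ERBB2 and EGF became 2 without a variance trend. For other GC-rich site factors the 1 call between arrays labelled ERBB2 and EGF became 2 without ERBB2 replicate 1. Equal array medians moved the median change of all probe sets from -0.11 to 0.05 with EGF and from 0.03 to -0.08 between arrays labelled ERBB2 and EGF. With them the share of higher among all calls moved from 44.8% to 67.5% and from 48.7% to 31.8%, so small changes are relative to the authors' scaling. The cause of these shifts was not tested. Without detection calls, signals near or under 16, including 2 EGR4 probe sets and 1 of NAB1, cannot be placed above background.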

Other observations

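Probe sets of one gene agreed to different degrees over the 9 arrays, which share their 3 groups. For EGR1 the 3 pairs of probe sets had r = 0.985, 0.877 and 0.824. For NAB1 the 3 pairs past the filter had r = 0.528, 0.428 and 0.169, and the NAB2 pair had r = 0.423.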
